A study of Mus musculus with 3 samples.

Results

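The genes of fatty acid uptake, storage and oxidation were followed in left ventricular RNA of mice. They comprise 44 genes of 15503 genes listed across the deposited tables. The list was drawn up by symbol from known pathway members, with earlier results of these data known. All 44 were listed in every library and passed the filter on low values in each comparison. They were grouped by role as 9 genes of uptake and activation, 25 of beta-oxidation and its mitochondrial steps, and 10 of triglyceride storage and lipolysis. The libraries came from C57BL6J mice labelled Egln1/Hif2aTie2Cre, mice labelled Egln1Tie2Cre and controls labelled Egln1 floxed mice, which the series text calls wild type. Each library held pooled RNA of 3 animals, so there is 1 library per genotype, no difference below has a replicate check and no test was made. Tie2Cre is a Cre recombinase driven by the Tie2 promoter, which is active in endothelium and also in blood-forming cells, whereas most fatty acid oxidation in the ventricle takes place in cardiomyocytes. The sources used here give no age, sex or treatment. In whole-tissue RNA, fewer cells of a type and less RNA per cell cannot be told apart.

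Fatty acids are the main fuel of the adult heart. They reach it bound to albumin or are released from lipoproteins by lipoprotein lipase on the capillary wall, cross the membrane, are bound by a small carrier protein and are activated to acyl-CoA. The acyl group then enters mitochondria on carnitine and is shortened in repeated rounds of beta-oxidation, or is stored as triglyceride in lipid droplets.

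Values are FPKM, fragments per kilobase of transcript scaled to the mapped fragments of the library, which allows levels of different genes to be compared within a library. Egln1, the targeted prolyl hydroxylase gene, had 129.0 FPKM in the library labelled Egln1/Hif2aTie2Cre, 95.7 in the Egln1Tie2Cre library and 129.5 in the floxed library. Epas1, which encodes Hif2a, had 54.5, 65.0 and 77.4 FPKM in the same libraries. The Egln1 level thus did not follow the Egln1 part of the double-deletion label, while Epas1 was lowest in that library. Tie2Cre is active in only some cells of the ventricle, so levels in whole-tissue RNA cannot check the deletions. That library is called by its label throughout.

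Among the 44 genes, 8 were at least 1.5-fold lower and 0 at least 1.5-fold higher in the Egln1Tie2Cre library than in the floxed library, on log2 ratios of FPKM + 1. Those 8 were Fabp3, Hadhb, Acot2, Acot1, Cpt2, Ucp3, Mlycd and Dgat2. Over all 11978 genes kept in that comparison, 8.73% were 1.5-fold lower and 9.46% were 1.5-fold higher. The median log2 ratio of the 44 was -0.07, and that of all genes was 0.02. The 8 genes are 18.2% of the 44. By role, 6 of 25 beta-oxidation genes, 1 of 9 uptake genes and 1 of 10 storage genes were among the lower ones. Beside the enzymes of each round, the 25 hold carnitine transferases, malonyl-CoA enzymes, thioesterases and uncoupling proteins. Of the 6, only Hadhb belongs to the enzymes of each round. Nearest the threshold were Dgat2, past it at -0.64, and Mgll, just short of it at 0.58 on the log2 scale. The largest ratios belonged to genes that have a near-identical copy at another locus. Without the 6 such members, 4 of 38 (10.5%) were lower, 19 were above and 19 below floxed, and the median was 0.01. Hadhb, Acot1 and Acot2 of the lower beta-oxidation genes are among those left out, and Cpt2, Ucp3 and Mlycd remain.

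In the library labelled Egln1/Hif2aTie2Cre, only Dgat2 of the 44 was at least 1.5-fold apart from the floxed library, and it was lower (2.27% of the 44). The background was 3.28% lower and 4.42% higher of 11888 genes. Acsl3 was 1.54-fold lower on plain FPKM but short of the threshold once 1 was added to its low values. The median log2 ratio was -0.06 for the 44 and -0.0038 for all genes. Set against the Egln1Tie2Cre library, 6 of the 44 were at least 1.5-fold higher in the library labelled Egln1/Hif2aTie2Cre, namely Fabp3, Hadhb, Acot1, Acot2, Cpt2 and Mlycd (13.6% of the 44), and 1, Acsl3, was lower (2.27%). There the background was 9.67% higher and 9.64% lower of 11999 genes, and the medians were -0.02 for the 44 and -0.02 for all genes. Of the 25 beta-oxidation genes, 17 were above and 8 below there, and of the 10 storage genes 1 was above and 9 below, with median log2 ratios of 0.15 and -0.20. Of the 9 uptake genes, 3 were above and 6 below. Hadhb, Acot1, Acot2, Etfa and Acaa1a, which have a near-identical copy, were all among the 17. Without the 6 members that have one, 15 were above and 23 below, and 2 of 38 (5.26%) were at least 1.5-fold higher. The share of all genes above or below was not computed. Acacb, at -0.57, lay just short of the threshold. The 3 comparisons share libraries and are not independent of each other.

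**Figure D1:**
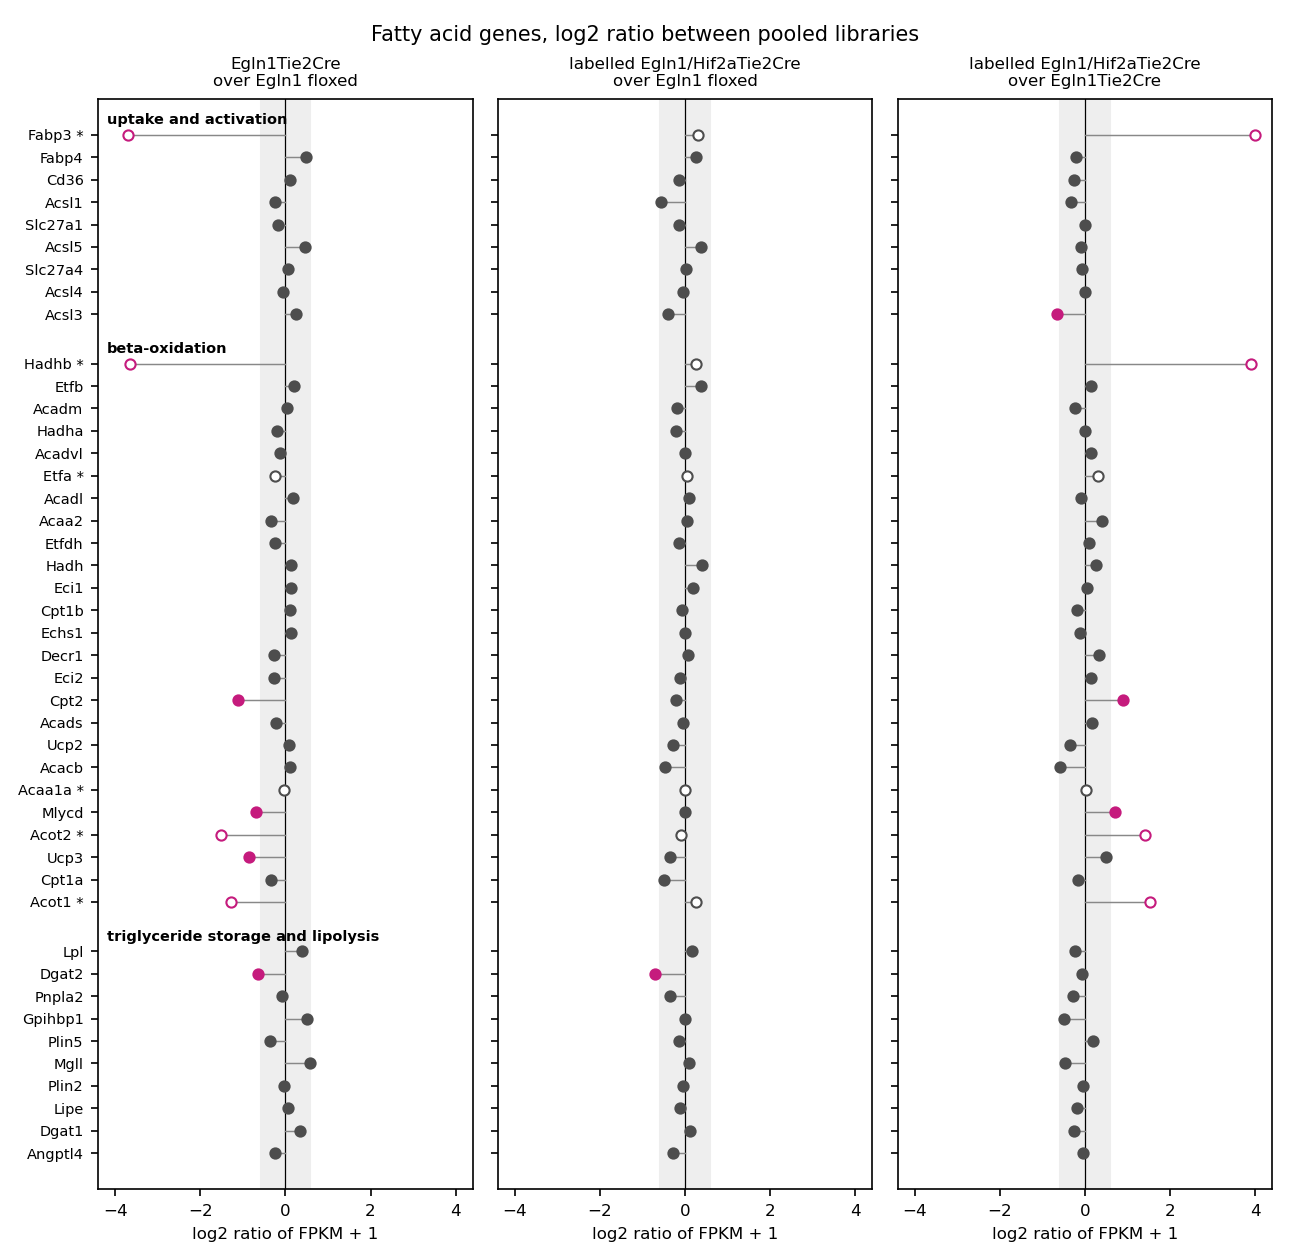
Log2 ratio of FPKM + 1 for the 44 fatty acid genes in the 3 pairs of pooled libraries, by role and in order of floxed level. The grey band marks less than 1.5-fold, magenta marks genes past it, and open circles with an asterisk mark 6 genes with a near-identical copy elsewhere; Fabp3 and Hadhb lie farthest out in both panels that involve the Egln1Tie2Cre library.

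In both comparisons with the Egln1Tie2Cre library, the 4 largest ratios (Fabp3, Hadhb, Acot1 and Acot2) were those of genes with a near-identical copy. Coding sequences of the 44 genes were searched against all annotated mouse transcripts (GENCODE M21, GRCm38), and 6 had a match of at least 95% identity over at least 150 bases outside their own locus. These were Fabp3, Hadhb, Etfa, Acaa1a and the pair Acot1 and Acot2, and the other 38 had none. Coordinates are those of that annotation, since the build behind the deposited tables is not stated. Fabp3 (chromosome 4, 130308595 to 130315463, plus strand) matched the processed pseudogene Fabp3-ps1 (chromosome 10, 86731987 to 86732388, minus strand) over its whole coding sequence of 399 bases, with 3 differing bases. Hadhb (chromosome 5, 30155248 to 30184593, plus strand) matched the processed pseudogene Gm13910 on chromosome 2 over all 1425 coding bases, also with 3 differences. Gm9108, another processed pseudogene, on chromosome 15, was 97.6% identical to Hadhb and is not analysed here. Stretches of 180 coding bases follow because they show how little sequence separates each parent from its copy; capitals mark the differing bases, and positions are counted from the first coding base.
Fabp3, coding bases 188 to 367: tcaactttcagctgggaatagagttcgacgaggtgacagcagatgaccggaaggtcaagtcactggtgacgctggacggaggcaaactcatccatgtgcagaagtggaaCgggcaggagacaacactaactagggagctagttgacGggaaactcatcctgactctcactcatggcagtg
Fabp3-ps1, same positions: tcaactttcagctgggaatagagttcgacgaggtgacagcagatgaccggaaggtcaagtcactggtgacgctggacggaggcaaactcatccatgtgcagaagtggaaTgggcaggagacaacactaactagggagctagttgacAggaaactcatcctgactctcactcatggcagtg
Hadhb, coding bases 304 to 483: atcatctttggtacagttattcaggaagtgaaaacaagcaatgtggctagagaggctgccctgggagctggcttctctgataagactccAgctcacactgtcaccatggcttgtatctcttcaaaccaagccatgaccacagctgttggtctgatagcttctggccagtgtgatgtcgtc
Gm13910, same positions: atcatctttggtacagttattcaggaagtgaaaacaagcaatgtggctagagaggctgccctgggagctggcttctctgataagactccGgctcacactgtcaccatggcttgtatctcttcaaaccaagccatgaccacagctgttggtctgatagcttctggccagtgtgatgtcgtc

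A read that lies wholly in a stretch shared by parent and copy cannot be placed by its sequence alone, so every window of 100 coding bases was compared. Of 300 such windows in the Fabp3 coding sequence, 157 (52.3%) occurred letter for letter in Fabp3-ps1, and of 1326 in Hadhb, 1026 (77.4%) occurred in Gm13910. The sources used here give no read length.

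Fabp3, the fatty acid binding protein of heart muscle, had 5047 FPKM in the library labelled Egln1/Hif2aTie2Cre, 315 in the Egln1Tie2Cre library and 4115 in the floxed library. Fabp3-ps1 had 1.93, 2449 and 2.27 FPKM in the same libraries. The Egln1Tie2Cre library was therefore 13.1-fold lower than the floxed library at the parent and 1079-fold higher at the pseudogene. Hadhb, the beta subunit of the mitochondrial trifunctional protein, had 961.7 FPKM in the library labelled Egln1/Hif2aTie2Cre, 63.4 in the Egln1Tie2Cre library and 805 in the floxed library. Gm13910 had 0.980, 411 and 1.67 FPKM in these, so that the Egln1Tie2Cre library was 12.7-fold lower at Hadhb and 246-fold higher at its copy. In each pair the low parent and the high copy fell in the same library, and both other libraries had the parent high and the copy between 0.980 and 2.27 FPKM.

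Weighted by annotated transcript length, the sum of Fabp3 and Fabp3-ps1 in the Egln1Tie2Cre library was 36.7% of the floxed sum, whereas Fabp3 alone was 13.1-fold lower. For Hadhb and Gm13910 that sum was 43.5% of the floxed sum. In the library labelled Egln1/Hif2aTie2Cre the sums were 122.7% and 119.4% of floxed. These sums use full transcript lengths (823 and 402 bases for Fabp3 and its copy, 2048 and 1428 for Hadhb and its copy), which differ from the effective lengths behind an FPKM, so they are rough. The levels of both parents in the Egln1Tie2Cre library are uncertain for this reason, and the part that read placement had in them was not tested.

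**Figure D2:**
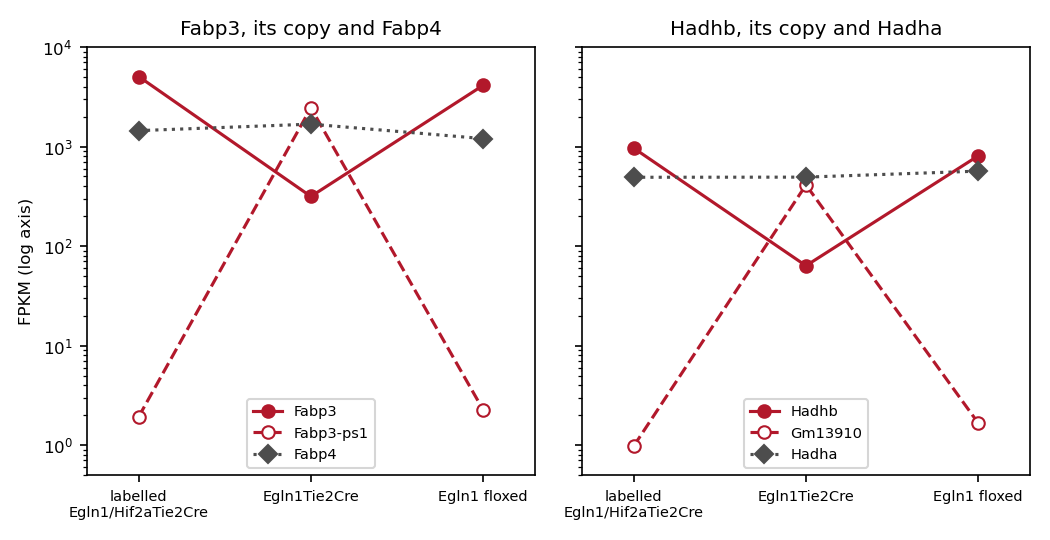
FPKM on a log axis in the 3 pooled libraries for Fabp3, its pseudogene Fabp3-ps1 and Fabp4 (left), and for Hadhb, its pseudogene Gm13910 and Hadha (right); lines only join the values of 1 gene. In the Egln1Tie2Cre library the parents are at 315 and 63.4 and the copies at 2449 and 411, while Fabp4 and Hadha stay within 1.40-fold and 1.15-fold of floxed.

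Apart from Fabp3, the uptake and activation genes of the Egln1Tie2Cre library stayed within 1.5-fold of the floxed library. Cd36, the main fatty acid transporter of heart muscle and its capillaries, had 392 FPKM in the library labelled Egln1/Hif2aTie2Cre, 465 in the Egln1Tie2Cre library and 432 in the floxed library. Fabp4, the carrier of capillary endothelium and adipocytes, had 1444, 1678 and 1202 FPKM in that order of libraries, 1.40-fold higher in Egln1Tie2Cre than in floxed. Slc27a1 and Slc27a4, fatty acid transport proteins with acyl-CoA synthetase activity, were within 1.13-fold and 1.06-fold of floxed in both other libraries.

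Acsl1, the chief acyl-CoA synthetase of cardiomyocytes, had 184.5 FPKM in the library labelled Egln1/Hif2aTie2Cre, 230.1 in the Egln1Tie2Cre library and 275 in the floxed library. It was 1.49-fold lower in the first of these than in floxed, just inside the threshold. Acsl5, a synthetase of the outer mitochondrial membrane and endoplasmic reticulum, had 8.68, 9.27 and 6.49 FPKM in the same libraries. Acsl3, a synthetase of lipid droplets whose exons overlap those of Utp14b on the same strand, was the lowest of the uptake genes at 1.47, 2.85 and 2.26 FPKM, and was 1.94-fold lower in the library labelled Egln1/Hif2aTie2Cre than in Egln1Tie2Cre. Acsl4, which prefers arachidonic acid, lay between 3.70 and 3.92 FPKM in all 3.

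**Figure D3:**
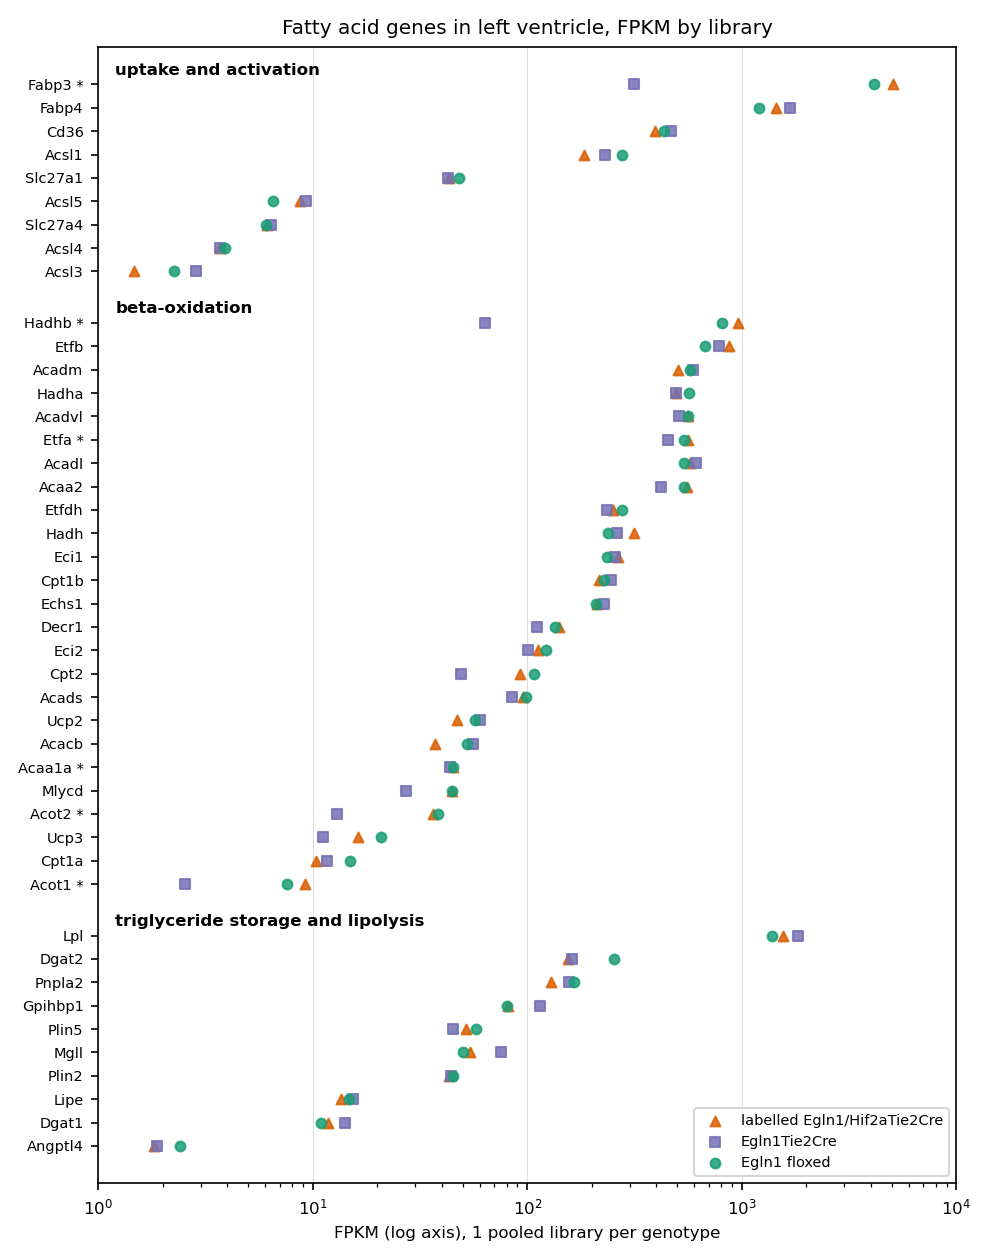
FPKM of the 44 genes on a log axis, 1 symbol per pooled library, grouped by role and ordered by the floxed level; an asterisk marks a near-identical copy elsewhere. Most genes keep their place in all 3 libraries, and the squares of Egln1Tie2Cre stand apart to the left for Fabp3, Hadhb, Cpt2, Mlycd, Acot2, Ucp3 and Acot1.

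At the carnitine shuttle, the inner-membrane step stood apart from the outer one. Cpt2, the carnitine palmitoyltransferase of the inner membrane, had 92.2 FPKM in the library labelled Egln1/Hif2aTie2Cre, 49.2 in the Egln1Tie2Cre library and 107 in the floxed library. The Egln1Tie2Cre value was 2.18-fold below floxed, and Cpt2 has no near-identical copy. Cpt1b, the muscle form of the outer-membrane enzyme and the step at which entry is controlled, had 217, 244 and 228 FPKM in these libraries. Its transcripts share exons with an annotated gene, Gm44502, which is not analysed here. Cpt1a, the liver form, had 10.4, 11.7 and 14.95 FPKM, and Cpt1b was 20.9, 20.9 and 15.2 times as abundant as Cpt1a in the same libraries. Slc25a20, the carrier that moves acylcarnitine across the inner membrane and a gene of the wider list described below, had 100.8, 86.2 and 117 FPKM.

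The regulators of that entry step gave unequal values. Mlycd, malonyl-CoA decarboxylase, which removes the inhibitor of Cpt1, had 44.7 FPKM in the library labelled Egln1/Hif2aTie2Cre, 27.1 in the Egln1Tie2Cre library and 44.7 in the floxed library. It was 1.65-fold lower in Egln1Tie2Cre than in either other library. Acacb, the acetyl-CoA carboxylase that makes malonyl-CoA at the mitochondrial surface, had 37.2, 55.9 and 52.2 FPKM in the same libraries. The ratio of Acacb to Mlycd was 0.832 in the library labelled Egln1/Hif2aTie2Cre, 2.06 in the Egln1Tie2Cre library and 1.17 in the floxed library.

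The acyl-CoA dehydrogenases, which carry out the first step of each round for chains of different length, differed little. Acadvl (very long chains) had 561.6 FPKM in the library labelled Egln1/Hif2aTie2Cre, 509.9 in the Egln1Tie2Cre library and 560.6 in the floxed library. Acadl (long chains) had 570.6, 612 and 539 FPKM, Acadm (medium chains) 504, 591 and 575, and Acads (short chains) 95.2, 84.4 and 98.9, in the same order. None was more than 1.17-fold apart in any pair. The electron acceptors of these enzymes were also close: Etfa, Etfb and Etfdh, the subunits of the electron transfer flavoprotein and its dehydrogenase, were within 1.29-fold of floxed in both other libraries.

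Hadha, the alpha subunit of the trifunctional protein and the partner of Hadhb, had 491 FPKM in the library labelled Egln1/Hif2aTie2Cre, 492 in the Egln1Tie2Cre library and 566 in the floxed library. The ratio of Hadha to Hadhb was 0.510, 7.77 and 0.703 in these libraries, while the subunits form a complex in equal numbers. The genes lie head to head on chromosome 5 with 85 bases between their annotated starts. That stretch is shown because it lies upstream of both genes (chr5:30155163-30155247, GRCm38.p6, plus strand, from the RefSeq promoter window of Hadhb).
Hadha-Hadhb: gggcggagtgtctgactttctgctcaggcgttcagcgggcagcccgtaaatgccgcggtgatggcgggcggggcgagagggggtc
It held 0 matches on either strand to ACGTG, a form of the core of the hypoxia response element. Other forms of the core were not searched. RefSeq promoter windows, 250 bases before to 50 after a start, were found for 35 of the 44 genes. Of their 41 windows, 17.1% held ACGTG on either strand, against 19.6% of all 32851 windows. The members with it were Acacb, Acadvl, Lipe, Mgll, Plin2 and Slc27a1.

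Hadhb apart, the genes of the later steps measured here (Echs1, Hadh and Acaa2) were within 1.32-fold in every pair. Echs1, the short-chain enoyl-CoA hydratase, had 210.5 FPKM in the library labelled Egln1/Hif2aTie2Cre, 229 in the Egln1Tie2Cre library and 209 in the floxed library. Hadh, the 3-hydroxyacyl-CoA dehydrogenase, had 314, 262 and 238 FPKM, and Acaa2, the mitochondrial thiolase, had 555, 421 and 535. Eci1, Eci2 and Decr1, which handle unsaturated chains, and Acaa1a, the peroxisomal thiolase, were within 1.21-fold of floxed in both other libraries.

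Acot1 and Acot2, cytosolic and mitochondrial thioesterases that split acyl-CoA, were both lower in the Egln1Tie2Cre library. Acot2 had 36.2 FPKM in the library labelled Egln1/Hif2aTie2Cre, 12.9 in the Egln1Tie2Cre library and 38.5 in the floxed library. Acot1 had 9.22, 2.54 and 7.62 FPKM in that order. Both were thus about 3-fold below floxed in Egln1Tie2Cre (2.98-fold and 3.00-fold). The genes lie 15.6 kb apart on chromosome 12 in the same direction, and their coding sequences are 95.1% identical over 1251 bases, so reads may be divided between them. Both were lower in the Egln1Tie2Cre library than in either other library, and the ratio of Acot2 to Acot1 was 3.93, 5.09 and 5.05 in the library labelled Egln1/Hif2aTie2Cre, the Egln1Tie2Cre library and the floxed library.

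Ucp3, the uncoupling protein of muscle mitochondria and a known target of the lipid-sensing receptor PPAR alpha, had 16.2 FPKM in the library labelled Egln1/Hif2aTie2Cre, 11.2 in the Egln1Tie2Cre library and 20.9 in the floxed library. It was 1.87-fold lower in Egln1Tie2Cre than in floxed. Its neighbour Ucp2, the widely expressed form, lies 6.90 kb away on chromosome 7 and had 47.0, 60.2 and 57.1 FPKM. Ucp2 overlaps exons of Dnajb13 on the opposite strand, and the sources used here do not say whether counting used strand, so its reads and those of its partner may not be separable. Exon overlap with a protein-coding gene on the opposite strand also applies to Acaa1a, Acadvl, Acsl5, Echs1, Etfdh, Fabp3 and Hadha, and with an antisense or unclassified transcript to Acsl1, Eci2, Lipe and Mgll. Etfb shares exons with Gm45233 on its own strand.

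Lpl and Gpihbp1, whose proteins act at the capillary wall, were somewhat higher in the Egln1Tie2Cre library than in floxed, within 1.5-fold. Lpl, lipoprotein lipase, had 1563 FPKM in the library labelled Egln1/Hif2aTie2Cre, 1827 in the Egln1Tie2Cre library and 1387 in the floxed library. Gpihbp1, the endothelial protein that carries the lipase to the capillary wall, had 80.97, 115 and 80.8 FPKM, 1.42-fold higher in Egln1Tie2Cre than in floxed. Angptl4, a secreted inhibitor of the lipase and a known target of both HIF and PPAR, was low in all libraries at 1.81, 1.88 and 2.42 FPKM. Beside these, 6 of 7 endothelial markers were above floxed in the Egln1Tie2Cre library, and 6 of 7 also in the library labelled Egln1/Hif2aTie2Cre. In Egln1Tie2Cre, Tie1 and Emcn were above floxed by only 1.01-fold and 1.02-fold. In the library labelled Egln1/Hif2aTie2Cre, Egfl7 and Emcn were above floxed by 1.58-fold and 2.09-fold. The other markers above floxed there were so by at most 1.17-fold, and Cdh5 was below. The markers summed to 424.5 FPKM in the library labelled Egln1/Hif2aTie2Cre, 379 in the Egln1Tie2Cre library and 330.2 in the floxed library. Their part in these values was not tested.

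Intracellular lipases and droplet proteins lay within 1.5-fold in every pair. Pnpla2, the lipase that starts triglyceride breakdown, had 129 FPKM in the library labelled Egln1/Hif2aTie2Cre, 156 in the Egln1Tie2Cre library and 166 in the floxed library. Lipe, hormone-sensitive lipase, lay at 13.5, 15.4 and 14.7 FPKM, and Mgll, the lipase of the last step, at 53.9, 75.3 and 50.2 FPKM. Plin2 and Plin5, droplet coat proteins, were within 1.29-fold of floxed in both other libraries.

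Dgat2, an enzyme that adds the last acyl chain to make triglyceride, was lower in both Cre libraries. It had 155.5 FPKM in the library labelled Egln1/Hif2aTie2Cre, 162 in the Egln1Tie2Cre library and 254 in the floxed library, which is 1.63-fold and 1.56-fold below floxed. Dgat1, which catalyses the same step, had 11.8, 14.1 and 10.9 FPKM, so that the ratio of Dgat2 to Dgat1 was 13.2, 11.5 and 23.4. Dgat2 has no near-identical copy, and it was the only member past 1.5-fold in the same direction from floxed in both other libraries, which share that floxed library.

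A wider list of fatty acid and triglyceride genes held 57 symbols, of which 50 were found in at least 1 comparison and 46 passed the filter in each comparison. In the Egln1Tie2Cre library 3 of the 46 were at least 1.5-fold below floxed (Acaca, Fabp5 and Gpam) and 0 above, with a median of -0.15. The 3 are 6.52% of the list, against 8.73% of all genes lower and 9.46% higher. On plain FPKM, Cidea was 1.53-fold above floxed and Acad10 1.66-fold below, but both fell short of the threshold once 1 was added. In the library labelled Egln1/Hif2aTie2Cre 3 were below (Gpam, Acaca and Scd2) and 1 above (G0s2), with a median of -0.16. These are 6.52% and 2.17% of the list, against 3.28% of all genes lower and 4.42% higher. Gpam, the mitochondrial acyltransferase that starts triglyceride synthesis, had 22.5 FPKM in the library labelled Egln1/Hif2aTie2Cre, 24.5 in the Egln1Tie2Cre library and 47.3 in the floxed library. Of the other acyltransferases of that first step, listed under older symbols, Agpat9 lay between 8.29 and 8.49 FPKM in all 3 libraries and Agpat6 had 12.7, 13.1 and 15.0 FPKM in the same order. Agpat1, Agpat2 and Agpat3, which act at the next step, were within 1.41-fold of floxed.

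G0s2, an inhibitor of the lipase Pnpla2, had 68.5 FPKM in the library labelled Egln1/Hif2aTie2Cre, 38.1 in the Egln1Tie2Cre library and 43.9 in the floxed library. Scd2, a fatty acid desaturase, had 3.78, 4.96 and 6.73 FPKM in these libraries. Fabp5, a carrier of many tissues, had 39.6, 14.9 and 31.8 FPKM but has pseudogenes, of which Gm6166 had 1.71, 17.7 and 18.2 FPKM, so its level is uncertain. Acaca, the cytosolic acetyl-CoA carboxylase, was low at 1.42, 0.706 and 3.15 FPKM and also has a near-identical pseudogene, Gm5182, which is not analysed here. Between the Cre libraries, Fabp5, G0s2 and Decr2, a peroxisomal reductase (5.56 against 3.22 FPKM), were at least 1.5-fold higher in the library labelled Egln1/Hif2aTie2Cre than in Egln1Tie2Cre (6.52% of the list, against 9.67% of all genes), and Cideb, a droplet protein whose exons overlap those of Nop9 (2.00 against 4.61 FPKM), was lower (2.17%, against 9.64%). Acaca and Cideb, below 5 FPKM throughout, were named after their values were seen.

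**Figure D4:**
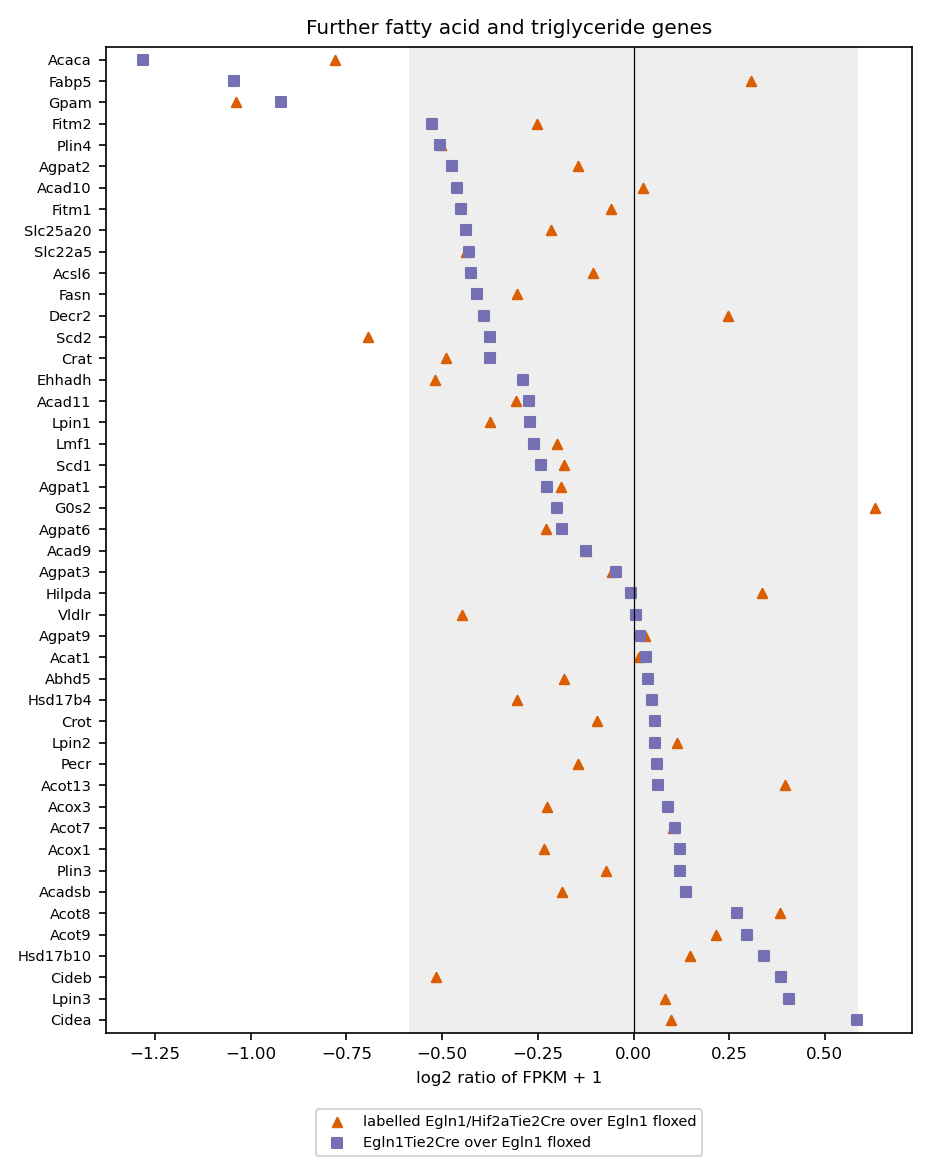
Log2 ratio of FPKM + 1 over the floxed library for 46 further fatty acid and triglyceride genes, ordered by the Egln1Tie2Cre ratio; triangles are the library labelled Egln1/Hif2aTie2Cre, squares the Egln1Tie2Cre library, and the grey band marks less than 1.5-fold. Gpam lies left of the band in both, and G0s2 lies right of it in the library labelled Egln1/Hif2aTie2Cre alone.

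Markers of the cells that express these genes were read beside them. The 6 cardiomyocyte markers listed in every library summed to 37877 FPKM in the library labelled Egln1/Hif2aTie2Cre, 41262 in the Egln1Tie2Cre library and 32916 in the floxed library, with 4 of 6 above floxed in each. Of these sums, Myl2 alone gave 15211, 19883 and 10992 FPKM, so they mostly follow that gene. Myh6, the adult myosin heavy chain, was among those below at 4600, 3645 and 6691 FPKM. Ryr2, a further marker of that list, had no value in the Egln1Tie2Cre library. It had 85.8 FPKM in the library labelled Egln1/Hif2aTie2Cre and 145 in the floxed library. Of 7 white adipocyte markers, the 3 listed in every library summed to 3.78, 2.96 and 2.86 FPKM: Adipoq, the adiponectin gene, had 0.770, 0.539 and 0.281 FPKM, and Lep and Plin1 had no value here. Ucp1, the defining gene of brown fat, had none either. Cidea and Cox8b of that list summed to 3146, 2176 and 1949 FPKM, of which Cox8b alone gave 3125, 2147 and 1930. With Ucp1 lacking a value, that sum is not read as brown fat. The hepatocyte genes Alb and Apoa1 also had no value. Macrophage markers summed to 20.4, 17.2 and 20.8 FPKM over 4 genes, fibroblast markers to 344, 302 and 273 over 5, and erythroid markers to 283, 479 and 389 over 3, in the same order of libraries. Dcn alone gave 264, 238 and 197 FPKM of the fibroblast sums. In the Egln1Tie2Cre library 3 of the 5 fibroblast markers were above floxed, and Pdgfra and Lum were below. The part of these cell types in the values of the 44 genes was not tested.

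In the authors' deposited tables, whose q-values compare a pair of pooled libraries and not genotypes, 2 of the 44 genes had a q of at most 0.05 for Egln1Tie2Cre against floxed. They were Fabp3 and Hadhb, at q = 0.0112 each in the authors' deposited table, among 69 genes past that threshold. The same genes, again at q = 0.0112, were the 2 past it for the library labelled Egln1/Hif2aTie2Cre against Egln1Tie2Cre in the authors' deposited table, among 85 genes. For the library labelled Egln1/Hif2aTie2Cre against floxed, the authors' deposited table placed 0 of the 44 past it, of 2 genes in all. Both genes past the threshold have near-identical copies. For Egln1Tie2Cre against floxed, the authors' deposited table gave q = 0.9996 at Fabp3-ps1 and q = 0.0112 at Gm13910. For the library labelled Egln1/Hif2aTie2Cre against Egln1Tie2Cre, it gave q = 0.9996 and q = 0.309 at these copies. At the copies, the deposited q thus did not track the difference in FPKM. The authors' deposited table gave Cpt2 a q of 0.901 and Acot2 a q of 0.553 for Egln1Tie2Cre against floxed.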

How the data were processed

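Left ventricular RNA was sequenced from 3 pooled libraries, 1 per genotype. The submitters' processing notes name TopHat2 and Cuffdiff, and the sources used here give no version, genome build or annotation for them. Per the file headers, the authors deposited 3 tables of FPKM for pairs of libraries, with a q-value per gene from their own comparison. Columns were assigned by the order of titles in each table's name, and the values of each library recurred within 0.1% for all genes shared by its tables; 0 columns of values were left without a sample. Depth and read counts are unknown.

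Computed here were log2 ratios of FPKM + 1 for genes averaging 1 FPKM or more across a pair, with calls at 1.5-fold; folds in the text are plain FPKM ratios. Copies were found with BLAST+ 2.17.0. The call step was run on simulated data with planted changes well past the threshold and little scatter. That run checks the code only and not the calls made in these data. All 44 genes are accounted for, those past 1.5-fold with every library's FPKM, and wider-list genes past it at 5 FPKM or more. The members and lists were chosen with earlier results of these data known. Python 3.11.15 and pandas 2.3.3 were used.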

Additional observations from a re-analysis of the deposited data

How the results depend on the processing

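The counts and medians for the 44 genes were recomputed with a pseudocount of 0.1, without the filter, at a mean FPKM of at least 5, with the median of all genes subtracted, over the 38 members without a near-identical copy, and at 2-fold. For Egln1Tie2Cre against floxed, the 8 lower genes became 4 without the members that have a copy (Cpt2, Ucp3, Mlycd and Dgat2) and 5 at 2-fold. For the library labelled Egln1/Hif2aTie2Cre against floxed, the 1 lower gene became 2 with the pseudocount of 0.1 and 0 at 2-fold. Against Egln1Tie2Cre, its 6 higher genes became 2 without the members that have a copy and 4 at 2-fold, and the 1 lower gene became 2 with the pseudocount of 0.1, 0 at a mean FPKM of at least 5 and 0 at 2-fold. All medians moved by less than 0.1 on the log2 scale, and the counts of 0 higher genes against floxed stayed 0. No paired analysis was possible because each genotype has 1 pooled library. With depth unknown, counting error at low members such as Angptl4 and Acsl3 cannot be given.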

Other observations

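The search for copies also named Acad12, an acyl-CoA dehydrogenase family gene outside the lists, which was picked after its values were seen. It had 22.5 FPKM in the library labelled Egln1/Hif2aTie2Cre, 10.4 in the Egln1Tie2Cre library and 28.9 in the floxed library, 2.78-fold below floxed in Egln1Tie2Cre. Its sequence is 95.4% identical to Acad10 over 1494 bases, and Acad10 had 2.24, 1.32 and 2.19 FPKM in the same libraries.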
